A study of Homo sapiens with 12 samples.

Results

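The comparison described here is the interaction of genotype and all-trans retinoic acid (ATRA) in NT2/D1 cells: for each gene, the change with ATRA in PRMT6 knockout cells minus the change with ATRA in control cells, on a log2 scale. Its members were chosen by design and not by any measured value, as all 12 of the 12 RNA-seq libraries of the series. NT2/D1 is a human pluripotent embryonal carcinoma line. The 4 groups were the CRISPR/Cas9 control without ATRA, the same control after 3 days with 1 µM ATRA, the PRMT6 knockout without ATRA and the PRMT6 knockout after 3 days with 1 µM ATRA, with 3 libraries in each. The labels name 1 knockout line, so the genotype and that line cannot be told apart. Whether replicates are separate cultures is not stated in the labels, and if they are not, the p-values cover technical spread alone. Of 56638 genes in the count table, 19130 passed the filter on low counts and were tested.

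ATRA enters cells and binds RAR:RXR receptor pairs that sit on retinoic acid response elements, and the bound receptors turn on target genes. Among the best known targets are RARB, the CYP26 enzymes that break retinoic acid down, and the HOX clusters, whose genes nearest the 3′ end are switched on first. In embryonal carcinoma cells the same signal shuts down pluripotency genes such as POU5F1 and NANOG. PRMT6 is an arginine methyltransferase that places asymmetric dimethylation on arginine 2 of histone H3, a mark that opposes methylation of the neighbouring lysine 4 at active promoters.

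Total counts ran from 25469881 to 60394918 per library. PRMT6 itself was at 22.4, 1.94 and 8.94 CPM (counts scaled to a common library size) in the untreated control libraries and 29.9, 15.9 and 26.8 in those with ATRA, against 0.0351, 0 and 0.0428 and 0, 0.0587 and 0 in the knockout libraries, given here and below in the order of replicates 1, 2 and 3. The markers of embryonal carcinoma cells were present in all 12 libraries, with 8 of 8 genes over 1 CPM in each. Of 9 markers of fibroblasts and stroma none was at 0 in every library, and their summed level ran from 264 to 1500 CPM in the control libraries and from 2250 to 13900 CPM in the knockout libraries. COL3A1 was the largest member of that sum in every knockout library, and not all members were higher in the knockout. The library labelled control ATRA 2 lacked most of the HOX response of its group. Of 18 anterior HOXA and HOXB genes, 1 was above every untreated control library there and 4 were below every one. The number above was 18 and 17 in control ATRA 1 and 3 and 17 or 18 in the knockout ATRA libraries. Other genes varied in control ATRA 2. PRRX2 was at 132 CPM there, against 35.5, 32.2 and 26.03 in the untreated control libraries. NANOG was at 18.1 CPM, against 46.9, 109 and 65.8. KCNK5, at 15.6 CPM, was below all untreated control libraries. Knockout ATRA 1 and 3 had nearly the same counts, differing by a chi-square per gene of 1.91, where sampling noise alone gives about 1. For knockout untreated 1 and 2 it was 9.01, and for all other pairs within a group it ran from 78.1 to 416.

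No gene passed the test of the interaction. With all 12 libraries in an edgeR quasi-likelihood fit, 0 of 19130 genes (0%) had a Benjamini-Hochberg adjusted p under 0.05, and the smallest adjusted p was 0.509. At an unadjusted p under 0.05 there were 1868 genes (9.76% of those tested), of which 1225 (6.4%) had a more positive ATRA change in the knockout and 643 (3.36%) a more negative one. That fit takes the near-identical knockout libraries as separate replicates. With knockout ATRA 1 and 3 summed, and knockout untreated 1 and 2 summed, 757 of 19777 genes (3.83%) were at that p and 0 were called. limma-voom called 0 genes, with 1597 at an unadjusted p under 0.05, and DESeq2 called 12, of which 10 were above 0. The count depended on single libraries: it was 135 without control untreated 1, 2 without the library labelled control ATRA 2 and 0 without any other one library. Every value of a single gene below is therefore the description of a difference that did not pass the adjusted test with all libraries, unless another test is named.

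The fitted ATRA changes had opposite signs in the 2 genotypes in 42.5% of all genes tested, had the same sign and a smaller size in the knockout in 34.9%, and the same sign and a larger size in the knockout in 22.6%. Among the 1868 genes at an unadjusted p under 0.05, which were picked by the same contrast, the shares were 75.9%, 17.5% and 6.64%. The most common pattern among those above 0 was a negative change in control and a positive one in the knockout, with medians of -0.72 and 0.65 on the log2 scale. Among those below 0 the medians were 0.93 in control and -0.20 in the knockout.

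**Figure D1:**
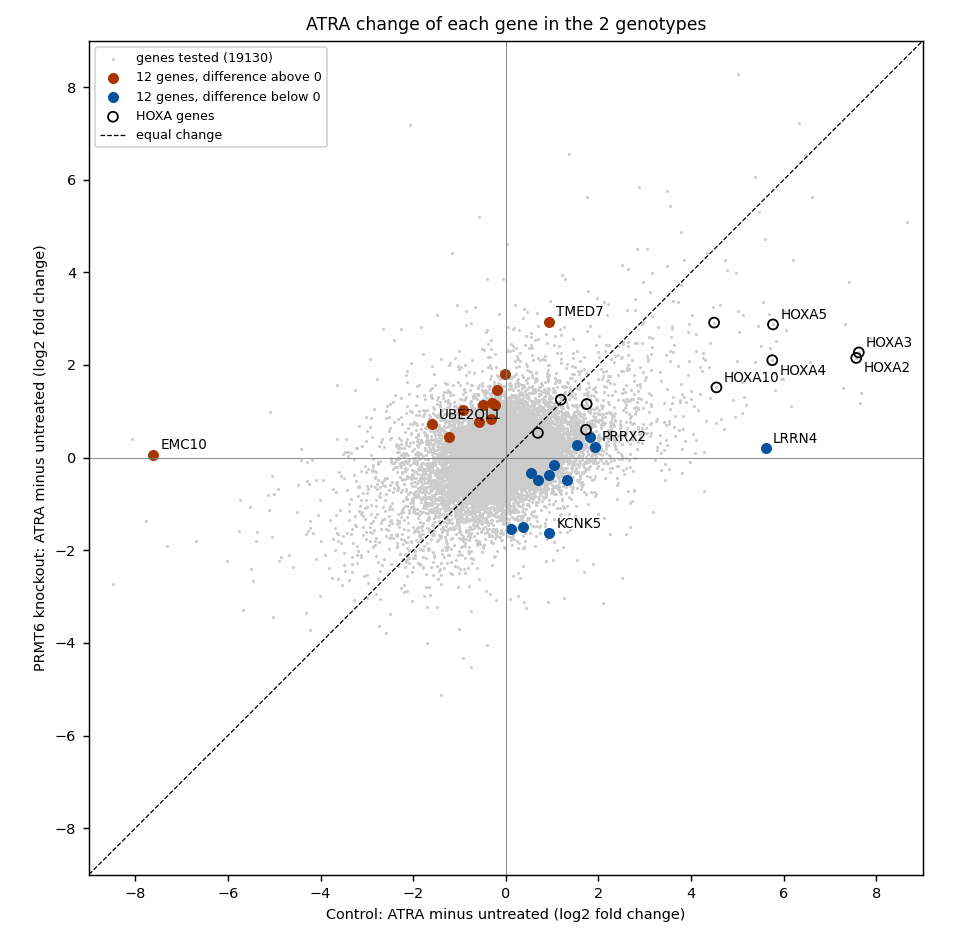
Fitted ATRA change (log2 fold change, ATRA minus untreated) of each gene tested, in control on the x axis and in the PRMT6 knockout on the y axis, with 2 genes outside the plotted range. The 12 genes with the smallest p above 0 (brown) lie above the dashed line of equal change, the 12 below 0 (blue) lie under it, and the HOXA genes (rings) lie at or below it, from near equal change to the far right.

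The genes that follow are the 12 in each direction with the smallest unadjusted p among genes of at least 5 CPM in a group. In 11 of the 12 above 0 every knockout ATRA library lay above every untreated knockout library, where 31.9% of all genes did not overlap in the knockout in either direction. In control, 3 lay wholly below and 1 wholly above, and 8 overlapped, where 14.8% of all genes did not overlap. In 9 of the 12 every untreated knockout library was below every untreated control library, which held for 27% of all genes. The untreated knockout libraries enter both this count and the interaction, and the 12 were picked by that contrast, so nothing is read from these counts. All 24 genes kept the sign of the difference on the CPM scale.

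TMED7, a p24 family protein that carries cargo from the endoplasmic reticulum to the Golgi, had the largest ATRA change of these in the knockout. In control it was at 5.63, 14.1 and 15.5 CPM untreated and 20.7, 27.1 and 19.6 with ATRA. In the knockout it was at 2.07, 2.58 and 2.697 untreated and 21.7, 14.5 and 20.1 with ATRA. All ATRA libraries were above all untreated libraries in both genotypes, and the ATRA change passed the test in the knockout (log2 2.94 ± 0.37, adjusted p = 0.0414) and not in control (0.93 ± 0.34, adjusted p = 0.157). The interaction was 2.002 ± 0.49 (SE, unadjusted p = 0.00146). The libraries with ATRA overlapped between genotypes, and every untreated knockout library was below every untreated control library.

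CLDN12, a claudin of tight junctions, was at 30.2, 40.6 and 45.4 CPM untreated and 25.1, 36.6 and 32.8 with ATRA in the control libraries. Its knockout values were 5.76, 6.41 and 6.17 untreated and 14.8, 13.8 and 12.8 with ATRA. Control libraries overlapped between treatments, and every knockout ATRA library was above every untreated knockout library and below every control library. The interaction was 1.47 ± 0.32 (SE, unadjusted p = 0.000505).

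RNF139, a ubiquitin ligase of the endoplasmic reticulum, lay much the same way, except that knockout ATRA 1 was above control untreated 1. Control libraries held 11.3, 20.9 and 20.4 CPM untreated and 14.5, 16.4 and 15.4 with ATRA, overlapping. Knockout libraries held 3.796, 4.06 and 3.47 untreated and 11.7, 9.802 and 9.83 with ATRA, without overlap, and the interaction was 1.65 ± 0.37 (SE, unadjusted p = 0.000717).

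BTF3L4, a relative of the nascent chain factor BTF3, was at 71.8, 115 and 119 CPM untreated and 79.2, 92.3 and 88.1 with ATRA in control, with overlap. In the knockout it was at 31.7, 28.6 and 35.3 untreated and 64.00, 82.02 and 63.5 with ATRA, with every ATRA library above every untreated one. Its interaction was 1.37 ± 0.31 (SE, unadjusted p = 0.000804). CEPT1, an enzyme that makes choline and ethanolamine phospholipids, was at 15.8, 24.5 and 30.1 CPM untreated and 16.8, 15.6 and 17.9 with ATRA in control and, in the knockout, at 8.08, 6.77 and 8.99 untreated and 15.7, 21.1 and 15.4 with ATRA. The treatments overlapped in control, where untreated 1 was among the ATRA libraries, and did not overlap in the knockout, and the interaction was 1.61 ± 0.38 (SE, unadjusted p = 0.000938).

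TIPRL, a regulator of phosphatases of the PP2A kind, was at 35.6, 51.6 and 44.9 CPM untreated and 32.4, 37.6 and 35.4 with ATRA in control, and at 14.2, 16.1 and 17.00 untreated and 28.8, 26.03 and 29.4 with ATRA in the knockout. NUPL2, a nucleoporin, was at 28.5, 37.02 and 38.2 CPM untreated and 20.8, 19.99 and 28.2 with ATRA in control, and at 11.8, 10.6 and 13.01 untreated and 18.1, 25.1 and 17.5 with ATRA in the knockout. In both genes the knockout ATRA libraries lay between the untreated knockout libraries and the untreated control libraries. The interactions were 1.16 ± 0.28 (SE, unadjusted p = 0.0013) for TIPRL and 1.37 ± 0.33 (SE, unadjusted p = 0.00136) for NUPL2. HMGN1P38, a pseudogene of HMGN1 whose reads may come from near-identical copies, was at 10.4, 14.5 and 13.6 CPM untreated and 12.6, 11.9 and 13.2 with ATRA in control, and at 1.898, 4.12 and 3.68 untreated and 10.8, 13.3 and 9.59 with ATRA in the knockout. Its interaction was 1.82 ± 0.42 (SE, unadjusted p = 0.000911), with overlap in control and none in the knockout.

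INPP5D, UBE2QL1 and NUPL2 were the 3 with no overlap in either genotype in which ATRA libraries lay below untreated ones in control and above them in the knockout. INPP5D, which encodes the inositol phosphatase SHIP1, was at 12.4, 17.3 and 18.9 CPM untreated and 7.29, 5.04 and 8.53 with ATRA in control. In the knockout it was at 38.8, 37.9 and 40.6 untreated and 46.5, 67.8 and 46.4 with ATRA. The fitted log2 changes with ATRA were -1.22 ± 0.26 and 0.46 ± 0.25, and the interaction was 1.68 ± 0.36 (SE, unadjusted p = 0.000529). Neither change passed its own test (adjusted p = 0.0599 in control and 0.535 in the knockout).

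UBE2QL1, of the ubiquitin-conjugating enzyme family, was at 2.62, 7.84 and 5.08 CPM untreated and 1.42, 1.74 and 1.97 with ATRA in control. The knockout values were 5.096, 6.77 and 6.89 untreated and 12.1, 7.72 and 11.1 with ATRA. Its interaction was 2.32 ± 0.53 (SE, unadjusted p = 0.00083). SESN1, a stress-induced sestrin and a target of p53, was at 9.63, 18.2 and 16.8 CPM untreated and 6.03, 7.67 and 9.72 with ATRA in control, with the treatments overlapping only through untreated 1 and ATRA 3. Knockout libraries had 7.56, 6.77 and 7.66 untreated and 12.3, 21.6 and 10.9 with ATRA and did not overlap, and the interaction was 1.96 ± 0.47 (SE, unadjusted p = 0.00117).

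EMC10, a subunit of the complex that inserts proteins into the endoplasmic reticulum membrane, had the largest fitted difference of the 24, and it rests on 2 libraries. In control it was at 0.1601, 45.9 and 26.4 CPM untreated and 0.215, 0.1300 and 0.0259 with ATRA. In the knockout it was at 97.5, 109 and 106 untreated and 109.7, 108 and 109 with ATRA in all 6 libraries within a narrow range. Control untreated 2 and 3 therefore differed from the other 4 control libraries, one of which was untreated, and the difference between genotypes in the ATRA change came from control alone. The interaction was 7.68 ± 1.66 (SE, unadjusted p = 0.000531), and 8.25 without control untreated 1.

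**Figure D2:**
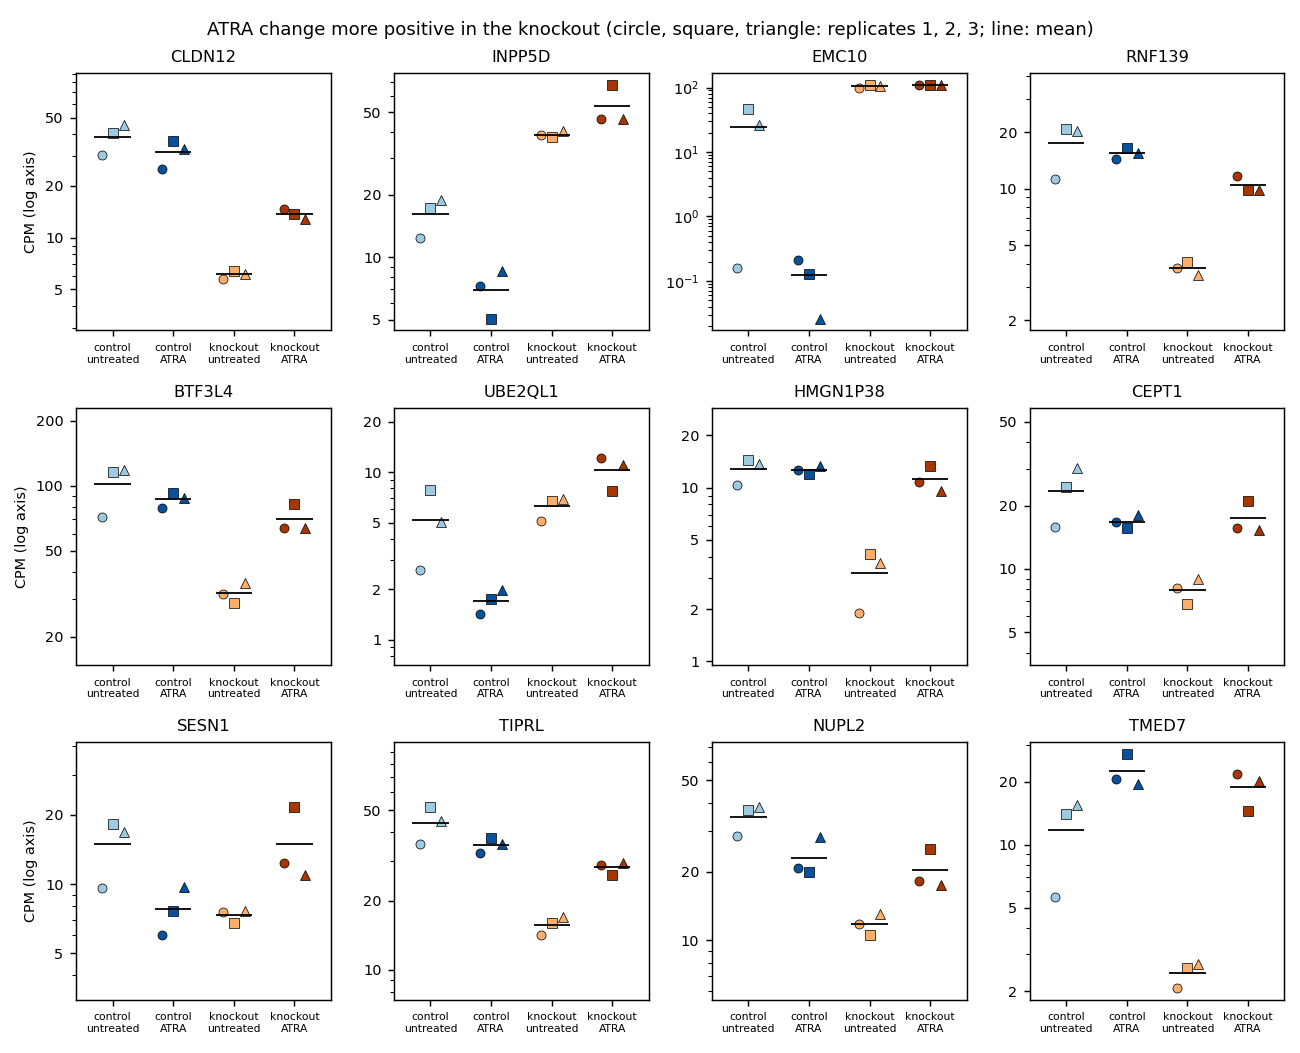
CPM (log axis) in each library for the 12 genes above 0, with the 4 groups on the x axis, symbols for replicates 1 to 3 and a line for the group mean. In 11 panels every knockout ATRA symbol is above every untreated knockout symbol, while EMC10 is level in the knockout and split in control.

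In 8 of the 12 genes below 0 every control ATRA library was above every untreated control library, as in 7.39% of all genes. In the knockout, every ATRA library was below every untreated library in 7 (14.7% of all genes), above in 2, and 3 overlapped. These 12 too were picked by the contrast that the counts describe, so nothing is read from them. In 8 of the 12 every untreated knockout library was above every untreated control library, which held for 20.9% of all genes. None of the 12 had all untreated knockout libraries below all untreated control libraries. The untreated knockout libraries enter these counts and the interaction, so nothing is read from these counts either.

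PRRX2, a paired-related homeobox factor of mesenchyme, had the smallest p of all genes. In control it was at 35.5, 32.2 and 26.03 CPM untreated and 118, 132 and 103 with ATRA. Knockout libraries were at 28.8, 35.8 and 29.1 untreated and 39.6, 31.3 and 39.7 with ATRA. The 3 control ATRA libraries, the one labelled control ATRA 2 included, were all above the other 9 libraries, and the 6 knockout libraries overlapped between treatments. The ATRA change passed the test in control (1.92 ± 0.21, adjusted p = 0.0118) and not in the knockout (0.24 ± 0.20, adjusted p = 0.741). The interaction was -1.68 ± 0.29 (SE, unadjusted p = 6.55e-05), with an adjusted p of 0.509 in edgeR and 0.000405 in DESeq2, and from 0.000405 to 0.917 over all other settings.

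BCL7C, a subunit of BAF chromatin remodelling complexes, and WTIP, a LIM domain protein that binds WT1, shared another arrangement. BCL7C was at 35.3, 30.4 and 21.3 CPM untreated and 124, 99.02 and 81.8 with ATRA in control, and at 84.8, 92.1 and 74.3 untreated and 119.8, 96.96 and 124 with ATRA in the knockout. WTIP was at 18.98, 14.4 and 14.9 CPM untreated and 62.2, 41.7 and 36.6 with ATRA in control, and at 42.8, 48.9 and 42.3 untreated and 52.4, 55.9 and 53.7 with ATRA in the knockout. For both, the untreated knockout libraries were above every untreated control library and overlapped the control ATRA libraries. Both rose with ATRA in control (log2 1.81 ± 0.24, adjusted p = 0.0295, for BCL7C and 1.54 ± 0.23, adjusted p = 0.041, for WTIP). The interactions were -1.37 ± 0.33 (SE, unadjusted p = 0.00115) and -1.27 ± 0.32 (SE, unadjusted p = 0.00167).

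LRRN4, a leucine-rich repeat membrane protein of neurons and mesothelium, was at 0.907, 0.0881 and 0.9804 CPM untreated and 40.5, 2.08 and 54.03 with ATRA in control. The knockout held 30.9, 36.2 and 21.8 untreated and 40.2, 19.3 and 43.1 with ATRA. Untreated and ATRA libraries overlapped in the knockout, at levels above every untreated control library, and the library labelled control ATRA 2 was far below control ATRA 1 and 3. The interaction was -5.41 ± 1.29 (SE, unadjusted p = 0.00116), and -5.96 without control ATRA 2. S100A11, a calcium-binding S100 protein, was at 452, 338 and 303 CPM untreated and 622, 889 and 734 with ATRA in control, and at 637, 605 and 658 untreated and 602, 484 and 628 with ATRA in the knockout, where the treatments overlapped. The interaction was -1.19 ± 0.30 (SE, unadjusted p = 0.00165).

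A further 3 genes had little difference in control, or only part of one, and lower levels with ATRA in the knockout. PTH1R, the receptor for parathyroid hormone, was at 56.3, 42.8 and 66.2 CPM untreated and 59.3, 69.6 and 85.6 with ATRA in control, and at 48.4, 59.3 and 67.9 untreated and 25.01, 11.1 and 26.4 with ATRA in the knockout. PPP1R1A, an inhibitor of protein phosphatase 1, was at 39.1, 70.6 and 40.3 CPM untreated and 54.1, 64.5 and 42.4 with ATRA in control, and at 27.4, 26.99 and 39.5 untreated and 8.96, 12.4 and 10.7 with ATRA in the knockout. In both genes the control libraries overlapped, and all 3 knockout ATRA libraries were below the other 9 libraries. KCNK5, a background potassium channel, was at 18.7, 31.6 and 15.9 CPM untreated and 61.5, 15.6 and 49.4 with ATRA in control, and at 18.4, 21.6 and 34.5 untreated and 6.38, 10.4 and 7.27 with ATRA in the knockout. Its control ATRA 1 and 3 were above every untreated control library and the library labelled control ATRA 2 was below them all, so that the interaction was -2.56 ± 0.64 (SE, unadjusted p = 0.00166) with that library and -2.96 without it. The interactions of the other 2 were -1.87 ± 0.44 (SE, unadjusted p = 0.00104) for PTH1R and -1.65 ± 0.40 (SE, unadjusted p = 0.00128) for PPP1R1A.

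The means of the remaining 4 were higher with ATRA in control and lower with ATRA in the knockout. CXCL14, a chemokine, was at 22.3, 10.6 and 14.7 CPM untreated and 52.7, 22.2 and 43.2 with ATRA in control, and at 168, 183 and 170.0 untreated and 123, 126 and 122 with ATRA in the knockout. DCTPP1, which hydrolyses dCTP, was at 84.2, 57.97 and 67.5 CPM untreated and 121, 133 and 86.3 with ATRA in control, and at 99.6, 102 and 133 untreated and 73.4, 90.5 and 76.2 with ATRA in the knockout. CXCL14 was higher in every knockout library than in any control library, and DCTPP1 libraries of the 2 genotypes overlapped. MVK, the mevalonate kinase of cholesterol synthesis, was at 58.2, 44.2 and 53.4 CPM untreated and 79.9, 75.8 and 72.9 with ATRA in control, and at 97.00, 101 and 111 untreated and 82.7, 76.98 and 85.6 with ATRA in the knockout. CLCF1, a ligand of the CNTF receptor, was at 13.7, 10.97 and 9.098 CPM untreated and 27.9, 15.98 and 20.4 with ATRA in control, and at 16.8, 19.6 and 17.1 untreated and 13.8, 14.2 and 13.5 with ATRA in the knockout. DCTPP1, MVK and CLCF1 did not overlap between treatments in either genotype, and CXCL14 overlapped in control only, through untreated 1 and the library labelled control ATRA 2. The interactions were -1.81 ± 0.44 (SE, unadjusted p = 0.00132), -1.18 ± 0.32 (SE, unadjusted p = 0.00269), -0.89 ± 0.24 (SE, unadjusted p = 0.00299) and -1.30 ± 0.35 (SE, unadjusted p = 0.00301), in that order.

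**Figure D3:**
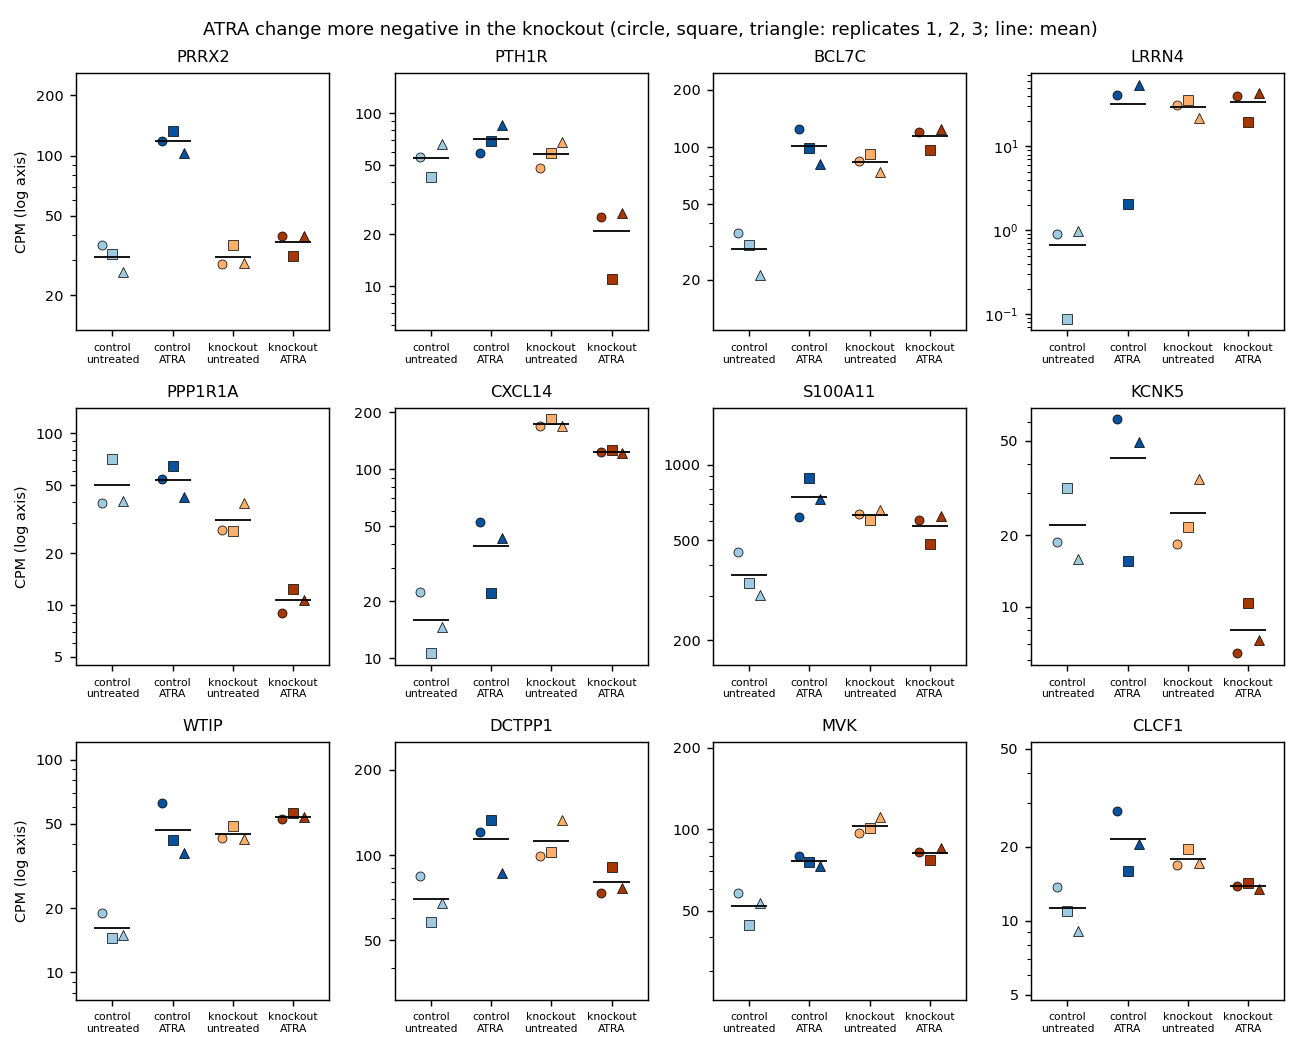
CPM (log axis) in each library for the 12 genes below 0, with groups on the x axis, symbols for replicates 1 to 3 and a line for the group mean. PRRX2 is high in the 3 control ATRA libraries only, and PTH1R and PPP1R1A are low in the 3 knockout ATRA libraries only.

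The GC content of a gene moved with the interaction, and its part in the result was not tested beyond the values here. Across 11148 genes of at least 5 CPM, which share libraries and are not independent, Spearman's rho between GC content and the log2 difference was -0.512. Median GC content was 41.75% in the genes at an unadjusted p under 0.05 above 0, 57.78% in those below 0 and 48.82% in all genes tested. The same rank correlation between GC content and a library's level relative to the mean of all libraries ran from -0.497 to 0.0981 in the control libraries and from 0.225 to 0.618 in the knockout libraries, with a lower value in every knockout ATRA library than in every untreated one. With each library's GC trend removed, 0 genes were called and 1352 were at an unadjusted p under 0.05. All 24 genes kept their direction then, but 6 of low GC content shrank by more than 1.5 times: CLDN12 to 0.83, BTF3L4 to 0.66, CEPT1 to 0.72, TIPRL to 0.41, NUPL2 to 0.75 and TMED7 to 1.14. PRRX2 was at -1.39, INPP5D at 1.96, UBE2QL1 at 2.36 and KCNK5 at -2.30.

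In the anterior HOXA list, of retinoic acid targets, 7 of 8 transcripts tested had every untreated knockout library above every untreated control library (20.9% of all genes), and HOXA7 overlapped. Of the 8, 7 had a smaller fitted log2 change of the same sign in the knockout (34.9% of all genes). Among them HOXA2, HOXA3 and HOXA4 were at an unadjusted p under 0.05 below 0 (37.5% of the list, against 3.36% of all genes). The median fitted change was 5.44 in control and 2.21 in the knockout, and the median interaction was -2.47, against 0.04 over all genes tested. None passed the adjusted test.

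HOXA3, a patterning factor of the hindbrain and pharyngeal arches, was at 0.614, 0.0352 and 0.115 CPM untreated and 70.8, 0.546 and 64.6 with ATRA in control. In the knockout it was at 20.1, 20.7 and 10.2 untreated and 59.7, 123 and 63.6 with ATRA. Untreated knockout libraries were above every untreated control library and the library labelled control ATRA 2, while the levels with ATRA in the knockout overlapped those of control ATRA 1 and 3. The log2 interaction was -5.35 ± 1.65 (SE, unadjusted p = 0.00665), yet the mean gain with ATRA was 45.1 CPM in control and 65.2 CPM in the knockout, so the sign depends on the scale. On the CPM scale 6 of the 8, with HOXA3, HOXA4, HOXA5 and HOXA7 among them, had the opposite sign, against 1658 of all 19130 genes.

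HOXA2, a hindbrain factor, was at 0.187, 0 and 0.0144 CPM untreated and 18.7, 0.1300 and 13.6 with ATRA in control, and at 4.36, 3.76 and 0.514 untreated and 13.8, 12.1 and 12.7 with ATRA in the knockout. HOXA5 was at 0.0801, 0.704 and 0.101 CPM untreated and 39.5, 0.182 and 10.2 with ATRA in control, and at 6.43, 6.97 and 4.24 untreated and 26.7, 75.9 and 27.1 with ATRA in the knockout. In both genes the untreated knockout libraries were above the untreated control libraries, by the least in knockout untreated 3 for HOXA2, and knockout ATRA 2 was the highest library for HOXA5. The log2 interactions were -5.41 ± 1.86 (SE, unadjusted p = 0.0125) for HOXA2 and -2.89 ± 1.63 (SE, unadjusted p = 0.101) for HOXA5, and that of HOXA5 was -1.22 without control ATRA 1 and -4.55 without control untreated 2.

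HOXA4, at 0.0267, 0.0528 and 0.0288 CPM in the untreated and 4.28, 0.05198 and 2.13 in the ATRA-treated control, was at 1.23, 0.589 and 0.556 untreated and 3.101, 4.05 and 3.11 with ATRA in the knockout, with an interaction of -3.65 ± 1.38 (SE, unadjusted p = 0.0211). HOXA6 and HOXA7 had small fitted differences, 0.06 ± 1.55 and -0.59 ± 1.03. HOXA10, further along the cluster, was higher in every knockout library than in any control library. It was at 0.0534, 0.0176 and 0.202 CPM untreated and 5.88, 0.104 and 1.296 with ATRA in control, and at 66.7, 65.6 and 57.8 untreated and 139, 264 and 141 with ATRA in the knockout, with an interaction of -3.03 ± 1.32 (SE, unadjusted p = 0.0398), which was -1.26 without control ATRA 1 and -4.55 without control untreated 3. HOXA9, HOXA11 and HOXA13 had fitted differences of -1.58 ± 1.47, -1.13 ± 0.88 and -0.16 ± 0.80. Of the 6 posterior genes tested only HOXA10 was at an unadjusted p under 0.05 (16.7% of the list, against 9.76% of all genes). The median interaction of that list was -0.95.

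Without the library labelled control ATRA 2, the median interaction of the anterior HOXA genes was -3.05. In that setting 4 of 8 were at an unadjusted p under 0.05, against 18.4% of all genes. HOXA3 was then at -5.96, HOXA2 at -6.02, HOXA4 at -4.23, HOXA5 at -3.47 and HOXA10 at -3.60. That library was singled out for lacking the HOX response, so larger HOX differences without it were favoured in advance. Nothing is read from the HOX values in that setting. With knockout untreated 3 and knockout ATRA 2 left out, the median of the anterior HOXA genes was -3.58. The HOXB genes were arranged alike, with a median change of 4.09 in control, 2.82 in the knockout and a median interaction of -1.34 over 10 genes, none at an unadjusted p under 0.05. HOXB2 was at 0.614, 4.33 and 2.52 CPM untreated and 107, 0.7797 and 51.9 with ATRA in control, and at 12.6, 13.2 and 22.4 untreated and 49.4, 167 and 50.8 with ATRA in the knockout, and its interaction of -1.93 ± 1.496 (SE, unadjusted p = 0.221) was -2.51 without the library labelled control ATRA 2 and -0.92 without control ATRA 1. HOXB5 was at 0 in all 3 untreated control libraries and at 26.1, 0.02599 and 3.27 CPM with ATRA, against 1.02, 0.7198 and 1.03 untreated and 6.75, 52.7 and 7.08 with ATRA in the knockout, so no fold is given for it. Among the HOX cofactors, MEIS1 was at 3.34, 0.898 and 3.33 CPM untreated and 65.6, 4.89 and 64.1 with ATRA in control, and at 25.9, 26.01 and 6.42 untreated and 41.6, 35.1 and 42.3 with ATRA in the knockout, with an interaction of -3.13 ± 1.10 (SE, unadjusted p = 0.0142), and -3.67 without the library labelled control ATRA 2, the only 1 of 11 cofactor genes under 0.05 (9.09%, against 9.76% of all genes).

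RARB, the retinoic acid receptor that retinoic acid itself induces, is shown with its promoter because it is the textbook response element of this signal. The 250 bases before its start, from RefSeq on GRCh38.p14 at chr3:25428013-25428262 on the plus strand, hold a direct repeat of half-sites spaced by 5 bases, printed in capitals, 53 to 37 bases before the start.
RARB: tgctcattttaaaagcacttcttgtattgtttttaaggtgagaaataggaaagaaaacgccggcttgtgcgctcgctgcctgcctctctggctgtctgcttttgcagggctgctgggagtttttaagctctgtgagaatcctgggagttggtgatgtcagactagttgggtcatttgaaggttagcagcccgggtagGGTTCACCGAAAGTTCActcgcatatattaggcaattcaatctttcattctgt
The half-sites searched were AGGTCA and its near variants, which were AGTTCA as well as the forms GGTTCA and also the form GGGTCA, in any pair in the same direction, on both strands. Such a repeat was in 19 of 27305 RefSeq promoters of this length (0.0696%), in 1 of the 87 promoters matched by symbol among 121 genes looked up, and in 0 of the 18 matched promoters among the 12 above and 12 below 0. A match describes these letters only, as does a missing one. RARB was at 0.4004, 0.0352 and 1.38 CPM untreated and 18.8, 1.61 and 5.21 with ATRA in control. Its knockout libraries held 8.75, 6.28 and 4.28 untreated and 19.6, 20.7 and 17.6 with ATRA, with the untreated ones above every untreated control library. The interaction was -2.19 ± 1.25 (SE, unadjusted p = 0.103), and it depended on single libraries: it was -2.68 (unadjusted p = 0.0331) without the library labelled control ATRA 2, -3.79 (unadjusted p = 0.0125) without control untreated 3 and -0.88 (unadjusted p = 0.454) without control ATRA 1.

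Genes that make, bind and break down retinoic acid had differences in both directions, with 2 of 13 at an unadjusted p under 0.05 above 0 (RDH11 and CYP26B1) and 2 below (CRABP1 and STRA6). These were 30.8% of the list, against 9.76% of all genes in both directions. CRABP1, a cellular retinoic acid binding protein, was at 160.4, 251 and 156 CPM untreated and 209, 237 and 365 with ATRA in control, and at 119, 123 and 125 untreated and 85.3, 78.2 and 84.9 with ATRA in the knockout. STRA6, the membrane receptor for retinol carried by RBP4, was at 58.2, 37.3 and 30.9 CPM untreated and 134, 51.8 and 100.1 with ATRA in control, and at 39.3, 42.3 and 33.2 untreated and 30.8, 48.4 and 30.4 with ATRA in the knockout. All knockout ATRA libraries were below all untreated knockout libraries for CRABP1, and the treatments overlapped in control. The interactions were -1.08 ± 0.34 (SE, unadjusted p = 0.00799) for CRABP1 and -1.25 ± 0.48 (SE, unadjusted p = 0.0239) for STRA6. RDH11, a retinol dehydrogenase, had an interaction of 0.91 ± 0.40 (SE, unadjusted p = 0.0401), and 0.59 without control untreated 3. DHRS3, which returns retinal to retinol, was at 10.4, 13.8 and 14.7 CPM untreated and 73.5, 7.64 and 37.2 with ATRA in control, and at 25.7, 24.8 and 24.3 untreated and 84.4, 149.5 and 82.6 with ATRA in the knockout, with an interaction of 0.48 ± 0.77, which was 1.29 without control ATRA 1 and 0.14 without knockout ATRA 2.

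The CYP26 enzymes show how far 1 library can set an interaction. CYP26A1 was at 0.0267, 3.21 and 0.0432 CPM untreated and 256, 0.05198 and 12.4 with ATRA in control, and at 1.48, 1.15 and 4.45 untreated and 12.7, 1019 and 11.1 with ATRA in the knockout. CYP26B1 was at 3.58, 5.23 and 7.25 CPM untreated and 40.4, 5.64 and 8.53 with ATRA in control, and at 0.492, 0.425 and 1.03 untreated and 2.38, 89.3 and 2.81 with ATRA in the knockout. Knockout ATRA 2 was far above the nearly identical knockout ATRA 1 and 3 in both genes, as control ATRA 1 was above the other control ATRA libraries. The interaction of CYP26B1 was 3.86 ± 1.68 (SE, unadjusted p = 0.0401) with knockout ATRA 2 and 0.25 without it, and that of CYP26A1 was 0.89 ± 2.86 with it and -4.00 without it. Of 16 retinoid and orphan receptor genes none was at an unadjusted p under 0.05, against 9.76% of all genes. Of the 16, 14 were below 0, against 9192 of all 19130 genes, with a median of -0.42. NR0B1, the orphan receptor DAX1 with the smallest p among them, had an interaction of -2.80 ± 1.34 (SE, unadjusted p = 0.0578), and -1.70 without control ATRA 1.

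**Figure D4:**
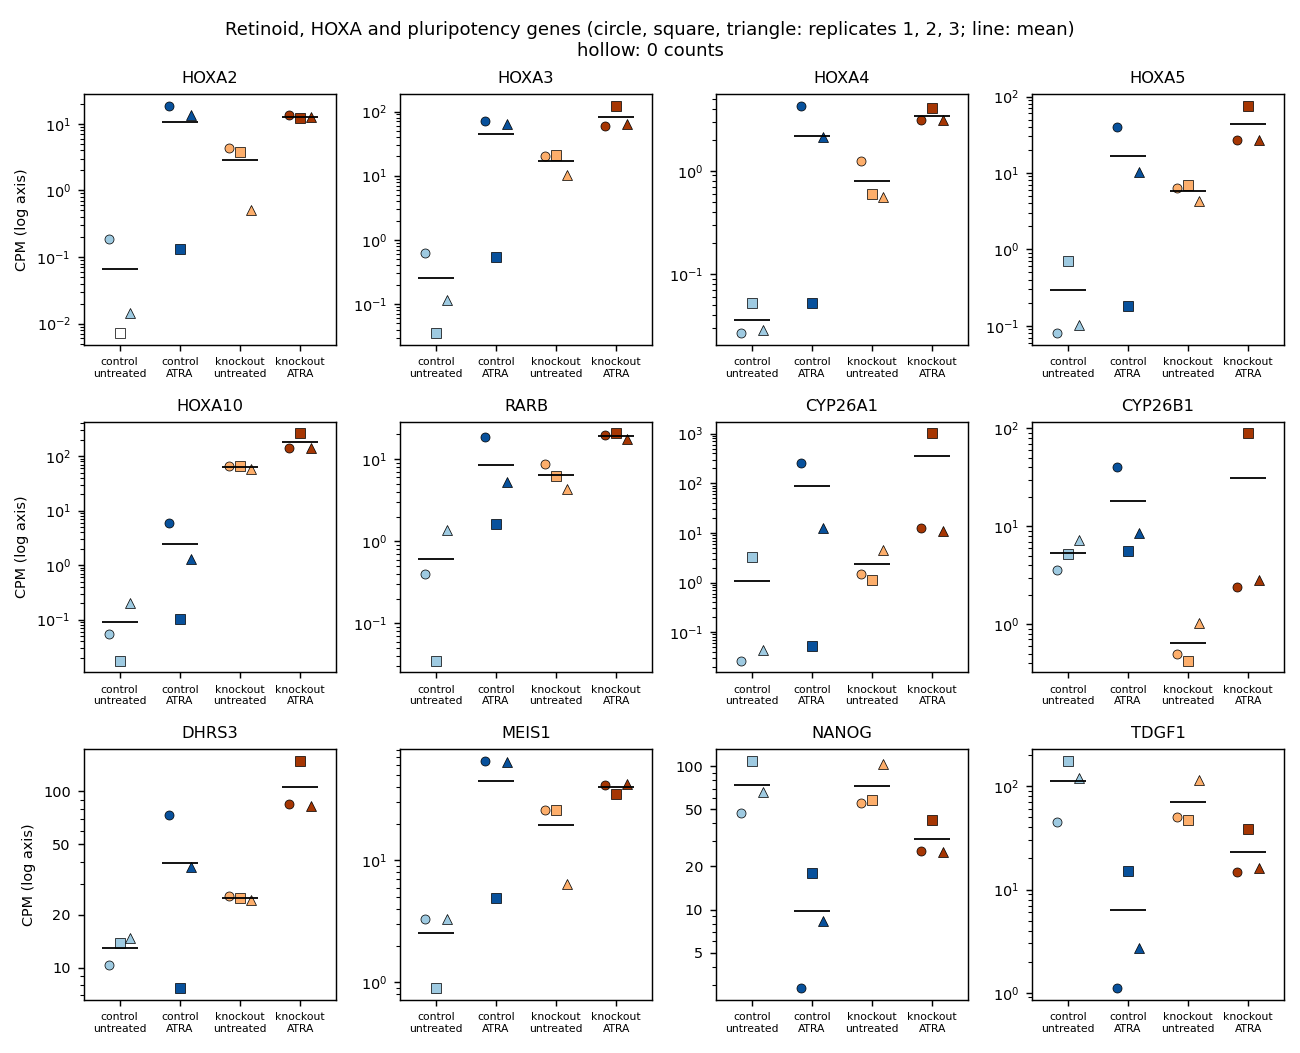
CPM (log axis) in each library for 12 genes of the retinoid response, the HOXA cluster and pluripotency, with groups on the x axis, symbols for replicates 1 to 3, hollow where a library had 0 counts, and a line for the group mean. The square of control ATRA lies at or near the untreated control libraries for the HOXA genes, MEIS1, CYP26A1 and DHRS3, and the untreated knockout libraries lie above the untreated control libraries for the HOXA genes.

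Of 22 pluripotency genes, NANOG and TDGF1 were at an unadjusted p under 0.05 (9.09% of the list, against 9.76% of all genes), with a smaller fitted decrease in the knockout. NANOG, a homeobox factor of the pluripotent state, was at 46.9, 109.5 and 65.8 CPM untreated and 2.83, 18.1 and 8.35 with ATRA in control, and at 55.6, 58.7 and 103 untreated and 25.8, 42.2 and 25.3 with ATRA in the knockout. TDGF1, the NODAL coreceptor, was at 45.2, 177 and 119 CPM untreated and 1.11, 15.1 and 2.72 with ATRA in control, and at 50.2, 46.8 and 116 untreated and 14.9, 38.4 and 16.03 with ATRA in the knockout. In both genes every ATRA library was below every untreated library of its genotype, and knockout ATRA libraries were above control ATRA 1 and 3. The interactions were 1.70 ± 0.75 (SE, unadjusted p = 0.0426) and 2.55 ± 1.12 (SE, unadjusted p = 0.0406), and without the library labelled control ATRA 2 they were 2.498 and 4.26. The list had medians of -1.31 in control and -0.90 in the knockout, with a median interaction of 0.25. Without the library labelled control ATRA 2 the median was 0.99. In that setting 10 of 22 were at an unadjusted p under 0.05 above 0, against 18.4% of all genes in either direction. Without knockout ATRA 2 none was above 0 at that p and 2 were below, against 8.25% of all genes in either direction. POU5F1 was at 590.5, 1498 and 520.0 CPM untreated and 147, 895 and 148 with ATRA in control, and at 791, 840.0 and 1524 untreated and 305, 515 and 299 with ATRA in the knockout, and its interaction of -0.36 ± 0.91 became 1.06 without the library labelled control ATRA 2.

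**Figure D5:**
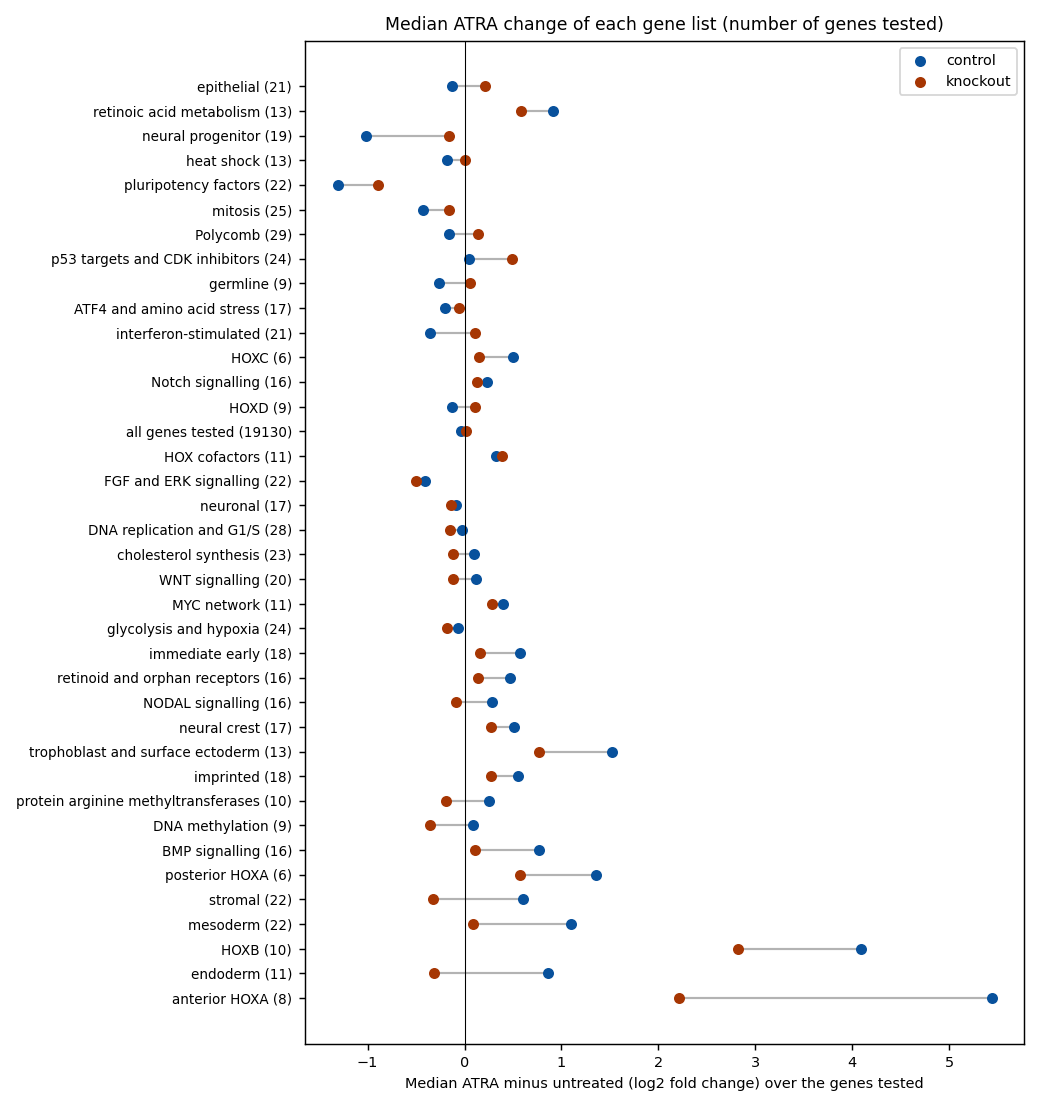
Median fitted ATRA change (log2 fold change, ATRA minus untreated) over the tested genes of each of the 37 gene lists and over all genes, for control (blue) and knockout (brown), ordered by the median interaction. Medians of all genes are near 0, the anterior HOXA and HOXB medians are the highest in both genotypes, and the stromal and endoderm medians lie on opposite sides of 0.

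The stromal, mesoderm and endoderm lists had median interactions below 0. Of 22 stromal genes, 20 had an interaction below 0, against 9192 of all 19130 genes. The median change was 0.60 in control and -0.32 in the knockout, and the median interaction was -1.14. Only MMP2, a matrix metalloproteinase, was at an unadjusted p under 0.05 (4.55% of the list against 9.76% of all genes). MMP2 was at 366, 182 and 276 CPM untreated and 529, 188 and 949.5 with ATRA in control, and at 1313, 1374 and 969 untreated and 990.2, 801 and 988 with ATRA in the knockout, with an interaction of -1.41 ± 0.62 (SE, unadjusted p = 0.042), which was -0.81 (unadjusted p = 0.156) without control ATRA 3. COL3A1, a fibrillar collagen, was at 69.7, 1.88 and 121 CPM untreated and 613, 39.4 and 569 with ATRA in control, and at 10570, 10920 and 1319 untreated and 10270, 1670 and 10140 with ATRA in the knockout, so that knockout untreated 3 and knockout ATRA 2 were each far below the rest of their group. The treatments overlapped in the knockout, and the interaction was -2.71 ± 1.71 (SE, unadjusted p = 0.137), or -2.74 without those 2 libraries. In bulk RNA, fewer cells of a type and less RNA per cell cannot be told apart. The summed fibroblast and stroma markers given above were higher in every knockout library than in any control library, with COL3A1 the largest member there. Not all members lay that way. THY1 was highest in control untreated 2, at 414 CPM, against at most 252 CPM in the knockout. DCN was at 0.128 CPM in knockout untreated 3 and 0.264 in knockout ATRA 2, against up to 0.246 in control. The part of these markers in the values above was not tested.

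Of 22 mesoderm regulators, 15 were below 0, against 9192 of all 19130 genes, with medians of 1.09 in control and 0.09 in the knockout. TBX2 and MEOX1 were at an unadjusted p under 0.05 (9.09% of the list, against 9.76% of all genes). MEOX1, a homeobox factor of somites, was at 0.614, 0.0704 and 0.216 CPM untreated and 4.64, 0.442 and 3.81 with ATRA in control, and at 0.703, 0.7198 and 0.385 untreated and 0.5797, 0.293 and 0.634 with ATRA in the knockout. TBX2, a T-box repressor, was at 0.4804, 0.106 and 0.519 CPM untreated and 7.78, 0.286 and 4.23 with ATRA in control, and at 95.2, 112 and 28.2 untreated and 112, 73.98 and 121 with ATRA in the knockout, where every library was above every control library. Control ATRA 1 and 3 alone stood above the other control libraries in both genes. The interactions were -3.62 ± 1.16 (SE, unadjusted p = 0.00844) for MEOX1 and -3.08 ± 1.18 (SE, unadjusted p = 0.022) for TBX2, and -4.14 and -3.64 without the library labelled control ATRA 2. Among 11 endoderm genes the median interaction was -1.31, or -1.66 with the gene that had an empty group held at its floor of 3 counts. CXCR4 and APOA1 were at an unadjusted p under 0.05 (18.2% of the list, against 9.76% of all genes). CXCR4, the CXCL12 receptor, was at 7.37, 5.195 and 3.86 CPM untreated and 23.3, 3.02 and 20.5 with ATRA in control, and at 8.79, 7.100 and 9.72 untreated and 7.77, 5.61 and 7.05 with ATRA in the knockout, with an interaction of -1.84 ± 0.77 (SE, unadjusted p = 0.0335), and -2.33 without the library labelled control ATRA 2. APOA1, an apolipoprotein, had an interaction of -2.03 ± 0.79 (SE, unadjusted p = 0.0233). The defining endoderm factors SOX17 and FOXA2 were at most 1.37 CPM in any library.

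Epithelial junction genes had a median interaction of 0.49 over 21 genes. Of these, 4 (19% of the list, against 6.4% of all genes) were at an unadjusted p under 0.05 above 0. CLDN4, a claudin, was at 8.09, 3.82 and 16.8 CPM untreated and 27.99, 43.4 and 26.9 with ATRA in control, and at 1.05, 1.93 and 1.798 untreated and 15.1, 27.3 and 15.98 with ATRA in the knockout. OCLN, occludin, was at 2.83, 4.91 and 4.902 CPM untreated and 1.600, 2.599 and 1.66 with ATRA in control, and at 1.05, 0.622 and 0.642 untreated and 1.74, 1.73 and 1.27 with ATRA in the knockout. CLDN4 was higher with ATRA in every library of both genotypes and passed the ATRA test in the knockout (3.61 ± 0.52, adjusted p = 0.0456) and not in control (1.77 ± 0.47, adjusted p = 0.0795). OCLN was lower in every control ATRA library and higher in every knockout ATRA library than in the untreated libraries of the same genotype. The interactions were 1.83 ± 0.66 (SE, unadjusted p = 0.0168) for CLDN4 (1.14 without control untreated 3) and 2.14 ± 0.52 (SE, unadjusted p = 0.00138) for OCLN. MARVELD3 and RAB25, a tight junction protein and a small GTPase of epithelia, had interactions of 2.92 ± 1.02 (SE, unadjusted p = 0.0141) and 1.84 ± 0.71 (SE, unadjusted p = 0.0233), and knockout ATRA 2 was the highest knockout library for both. Without it RAB25 was at 1.23 and MARVELD3 at 2.15.

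Of 24 p53 targets and CDK inhibitors, 5 were at an unadjusted p under 0.05 above 0 and 1 below (25% of the list, against 9.76% of all genes in both directions), and the list median was 0.20. SESN1 is given above. ZMAT3, an RNA-binding p53 target, was at 9.902, 24.8 and 19.9 CPM untreated and 12.03, 14.4 and 11.4 with ATRA in control, and at 23.9, 23.8 and 12.2 untreated and 52.9, 31.6 and 46.99 with ATRA in the knockout. MDM2, the ubiquitin ligase of p53, was at 68.6, 52.02 and 76.3 CPM untreated and 55.2, 75.1 and 50.6 with ATRA in control, and at 53.6, 50.9 and 42.4 untreated and 83.8, 64.97 and 77.1 with ATRA in the knockout. In both genes every knockout ATRA library was above every untreated knockout library, and the control libraries overlapped. The interactions were 1.66 ± 0.50 (SE, unadjusted p = 0.00591) for ZMAT3, 0.74 ± 0.31 (SE, unadjusted p = 0.0339) for MDM2, 1.67 ± 0.74 (SE, unadjusted p = 0.0424) for RRM2B, a ribonucleotide reductase subunit, and 0.71 ± 0.32 (SE, unadjusted p = 0.0473) for TNFRSF10B, a TRAIL receptor. The GC content of the 5 ran from 35.1 to 49.7%, and with the GC trends removed ZMAT3 was at 0.97, MDM2 at 0.27, RRM2B at 0.82, SESN1 at 1.45 and TNFRSF10B at 0.85. CDKN1C, the imprinted CDK inhibitor, had the opposite sign (-0.76 ± 0.32 (SE, unadjusted p = 0.033)), from 55.4, 47.7 and 49.3 CPM untreated and 122, 103 and 132 with ATRA in control, and 37.5, 42.3 and 48.4 untreated and 46.1, 79.1 and 51.8 with ATRA in the knockout.

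Of 23 cholesterol synthesis genes, 9 were above 0 and 14 below, against 9938 and 9192 of all 19130 genes. At an unadjusted p under 0.05 (17.4% of the list, against 9.76% of all genes) were the sterol-modifying MSMO1 and SC5D above 0, and MVK and MVD, of the mevalonate steps, below 0. MSMO1 was at 53.5, 141 and 203 CPM untreated and 69.95, 119 and 90.8 with ATRA in control, and at 17.5, 14.99 and 19.5 untreated and 50.9, 58.3 and 48.95 with ATRA in the knockout. MVD was at 151, 121 and 129.9 CPM untreated and 232, 224 and 238 with ATRA in control, and at 248, 294 and 284 untreated and 275, 239 and 273 with ATRA in the knockout. MSMO1 and SC5D were higher in every knockout ATRA library than in any untreated one and overlapped in control. MVD was higher in every control ATRA library than in any untreated one and overlapped in the knockout. The interactions were 2.11 ± 0.53 (SE, unadjusted p = 0.00167) for MSMO1, 1.32 ± 0.44 (SE, unadjusted p = 0.0101) for SC5D and -0.86 ± 0.24 (SE, unadjusted p = 0.0032) for MVD. The first pair is of low and the second of high GC content, and with the GC trends removed the 4 values were 1.35, 0.54, -0.66 (MVK) and -0.61 (MVD).

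Genes of amino acid stress and of Polycomb complexes had members with lower levels in every control ATRA library. ASNS, asparagine synthetase, was at 93.6, 276 and 251 CPM untreated and 45.1, 77.9 and 48.5 with ATRA in control, and at 89.6, 91.97 and 115 untreated and 89.9, 72.3 and 88.7 with ATRA in the knockout. DDIT3, the stress factor CHOP, was at 21.7, 66.6 and 50.3 CPM untreated and 19.1, 14.4 and 19.3 with ATRA in control, and at 32.9, 29.9 and 24.4 untreated and 28.4, 33.02 and 29.9 with ATRA in the knockout. The treatments overlapped in the knockout for both genes and did not overlap in control, where untreated 1 was the nearest to the ATRA libraries. The interactions were 1.61 ± 0.49 (SE, unadjusted p = 0.00618) and 1.46 ± 0.47 (SE, unadjusted p = 0.00833), the 2 of 17 genes in that list under 0.05 (11.8%, against 9.76% of all genes). Among 29 Polycomb genes 3 were at an unadjusted p under 0.05 (10.3%, against 9.76% of all genes), all above 0: CBX7 (2.38 ± 0.76 (SE, unadjusted p = 0.00832)), PHC1 (1.10 ± 0.41 (SE, unadjusted p = 0.0185)) and RBBP7 (0.76 ± 0.31 (SE, unadjusted p = 0.03)). With the GC trends removed RBBP7 was at 0.37, and without control untreated 2 PHC1 was at 0.65. PHC1, a subunit of the canonical repressive complex, was at 204, 534 and 299 CPM untreated and 73.1, 89.4 and 106 with ATRA in control, and at 270.3, 253 and 259 untreated and 140.3, 149 and 145 with ATRA in the knockout. It fell with ATRA in control (log2 -1.95 ± 0.30, adjusted p = 0.0441), and its change in the knockout was -0.85 ± 0.29 (adjusted p = 0.261).

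The neural progenitor, neuronal and neural crest lists had 21.1%, 11.8% and 11.8% of their members at an unadjusted p under 0.05, against 9.76% of all genes. Of 19 neural progenitor genes, SOX3 (1.25 ± 0.50 (SE, unadjusted p = 0.0286)) was above 0 and LHX2 (-0.99 ± 0.32 (SE, unadjusted p = 0.0083)) and IRX5 (-2.38 ± 0.98 (SE, unadjusted p = 0.0315)) were below. SIX6, also at an unadjusted p under 0.05, was high in control untreated 2 alone, at 0.134, 13.9 and 0.0865 CPM untreated and 0.0308, 0 and 0.0259 with ATRA in control. LHX2, a LIM homeobox factor of the forebrain, was at 29.7, 25.4 and 19.8 CPM untreated and 21.2, 26.6 and 23.7 with ATRA in control, and at 15.1, 16 and 17.8 untreated and 8.64, 6.75 and 8.15 with ATRA in the knockout, with all knockout ATRA libraries below the other 9. Of 17 neuronal genes, NEFL, a neurofilament, was at 39.1, 29.9 and 26.2 CPM untreated and 26.1, 33.3 and 30.7 with ATRA in control, and at 82.8, 85.7 and 64.6 untreated and 124, 122 and 126 with ATRA in the knockout, with an interaction of 0.75 ± 0.29 (SE, unadjusted p = 0.0221).

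Of 28 genes of DNA replication and the G1/S step, 3 were under 0.05 (10.7%, against 9.76% of all genes): RFC4 (1.12 ± 0.51 (SE, unadjusted p = 0.0459)), a clamp loader subunit, POLE2 (1.06 ± 0.47 (SE, unadjusted p = 0.0422)), a DNA polymerase epsilon subunit, and E2F1 (-0.78 ± 0.28 (SE, unadjusted p = 0.0162)), a transcription factor of S phase entry. Of 25 mitosis genes 2 were (8%, against 9.76% of all genes), the proliferation antigen MKI67 (-1.17 ± 0.52 (SE, unadjusted p = 0.0415), and -0.79 without the library labelled control ATRA 2) and CCNB1, cyclin B1 (0.77 ± 0.35 (SE, unadjusted p = 0.0494)), which was at 0.35 with the GC trends removed. MKI67 was at 276, 187 and 323 CPM untreated and 259.7, 338 and 91.1 with ATRA in control, and at 255, 212 and 223 untreated and 88.3, 87.95 and 91.9 with ATRA in the knockout, where every ATRA library was below every untreated one. Signalling genes included WNT5B, a WNT ligand (-1.74 ± 0.69 (SE, unadjusted p = 0.0257)), ETV1, a factor downstream of FGF and ERK (1.86 ± 0.61 (SE, unadjusted p = 0.00997), and 1.19 with the GC trends removed), and HEY1, a Notch target (-2.53 ± 1.14 (SE, unadjusted p = 0.0449)). They were the only members under 0.05 of 20 WNT, 22 FGF and ERK and 16 Notch genes. Those shares were 5%, 4.55% and 6.25%, against 9.76% of all genes. WNT5B was at -1.29 (unadjusted p = 0.083 in edgeR) without knockout untreated 3. Of 10 protein arginine methyltransferase genes, 1 was under 0.05 above 0 and 1 below (20% of the list, against 9.76% of all genes). The one above was NDUFAF7 (0.85, unadjusted p = 0.04, and 0.43 with the GC trends removed). The one below was PRMT1, the main asymmetric arginine methyltransferase and so of the same class as PRMT6. PRMT1 was at 491, 458 and 364 CPM untreated and 637, 530.3 and 502 with ATRA in control, and at 599, 659.5 and 842 untreated and 519, 574 and 528 with ATRA in the knockout, with an interaction of -0.72 ± 0.28 (SE, unadjusted p = 0.0237), and -0.48 with the GC trends removed. The interferon-stimulated, heat shock, immediate early and BMP lists had no member at an unadjusted p under 0.05.

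Few genes passed the test of ATRA within a genotype. ATRA changed 22 genes in control (0.115% of those tested) and 6 in the knockout (0.0314%), with 0 called in both. Of the 22, 20 had a smaller fitted change of the same sign in the knockout, and all 6 called in the knockout had a smaller change of the same sign in control. These were picked as extreme in 1 genotype, which by itself favours a smaller value in the other, and no interaction among them passed the test. The control count was 2419 without the library labelled control ATRA 2 and 2457 without control untreated 1. METRN, meteorin, a secreted factor of glia, was at 24.7, 26.4 and 31.8 CPM untreated and 304, 185 and 161 with ATRA in control, and at 20.3, 27.8 and 11.6 untreated and 62.8, 90.7 and 63.2 with ATRA in the knockout. MDK, the growth factor midkine, was at 1152, 1143 and 1156 CPM untreated and 3753, 2331 and 3207 with ATRA in control, and at 2962, 3271 and 2435 untreated and 3853, 3762 and 3996 with ATRA in the knockout. Both rose with ATRA in control (log2 2.97 ± 0.34 and 1.43 ± 0.21, adjusted p = 0.0121 and 0.041), and their interactions were -1.11 ± 0.45 (SE, unadjusted p = 0.0299) and -1.01 ± 0.29 (SE, unadjusted p = 0.00454).

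Some called genes had nearly the same ATRA change in both genotypes. TAX1BP3, a PDZ domain protein, was at 4.11, 3.42 and 4.22 CPM untreated and 13.2, 8.39 and 13.5 with ATRA in control, and at 4.96, 4.78 and 4.71 untreated and 13.7, 13.9 and 12.9 with ATRA in the knockout. CTSK, cathepsin K, was at 11.1, 13.9 and 7.64 CPM untreated and 2.62, 3.09 and 3.71 with ATRA in control, and at 13.1, 10.8 and 13.01 untreated and 3.94, 3.38 and 4.41 with ATRA in the knockout. Neither gene had overlapping treatments in either genotype. TAX1BP3 rose by 1.57 ± 0.25 in control (adjusted p = 0.0441) with a fitted change of 1.49 ± 0.25 in the knockout (adjusted p = 0.0691), and its interaction was -0.09 ± 0.35. CTSK had -1.79 ± 0.29 in control (adjusted p = 0.0441) and -1.66 ± 0.29 in the knockout (adjusted p = 0.0691), with an interaction of 0.13 ± 0.39. In the knockout, NDUFC2, a subunit of respiratory complex I, was at 17.9, 21.2 and 23.1 untreated and 98.4, 104 and 93.6 with ATRA against 22.1, 58.3 and 47.9 CPM untreated and 102, 97.00 and 75.96 with ATRA in control, and its interaction was 1.15 ± 0.42 (SE, unadjusted p = 0.0162). DSTN, the actin-severing protein destrin, had log2 changes of 1.21 ± 0.18 in the knockout (adjusted p = 0.0456) and 0.61 ± 0.17 in control (adjusted p = 0.0954), and its interaction of 0.60 ± 0.25 (SE, unadjusted p = 0.03) was 0.11 with the GC trends removed.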

How the data were processed

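RNA of NT2/D1 cells was sequenced after TruSeq stranded mRNA preparation, per the labels' protocols. The authors deposited unnormalized read counts of each gene in each library, and all 12 columns were used. Per the submitters' processing notes, bcl2fastq, TopHat2, Subread, featureCounts and DESeq2 were used with hg19 and GRCh37. For the strand setting and the annotation, the sources used here give nothing, so overlapping and antisense genes are uncertain, as are genes with near-identical copies.

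From these counts, genes were kept by filterByExpr (minimum count 10), scaled by TMM and fitted in edgeR 4.0.16 under R 4.3.3 with 1 coefficient per group over all 12 libraries. A quasi-likelihood F-test was made of the interaction and of ATRA within each genotype. All p-values are two-sided, and adjusted ones are by Benjamini-Hochberg over the 19130 genes. Calls needed an adjusted p under 0.05. Among replicates, the common biological coefficient of variation was 0.367. All levels are CPM from TMM-scaled library sizes, and log2 differences carry the standard error of the fit. At these depths 3 counts are 0.0433 to 0.128 CPM. Where a group held 3 or fewer counts, no fitted fold is given. GC content came from GENCODE v44 on GRCh38 by symbol, for 97.6% of genes of at least 5 CPM. Promoters are from RefSeq.

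The members, the 37 gene lists and the tests were chosen with earlier results of these data known. Named are the 12 genes in each direction with the smallest unadjusted p, at least 5 CPM in a group and a gene symbol (clone names, antisense and small RNAs left out), the member of each list with the smallest p, HOXA genes, PRMT6, POU5F1, NANOG, CYP26A1, CYP26B1, RARB and DHRS3. A few genes chosen this way are left out of the text. Other names were chosen after their values were seen: list members at an unadjusted p under 0.05, genes called under ATRA, HOXB2, HOXB5, COL3A1 and those of the closing section. Alternatives were RLE scaling, limma-voom 3.58.1, DESeq2 1.42.0, no filter or a stricter one (more than 1 CPM in 3 or more libraries), a replicate block, each library left out, a log2 difference of at least 1, pairs of libraries summed or left out, and GC trends removed. The fit was tested on simulated data with seeded fold changes.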

Additional observations from a re-analysis of the deposited data

How the results depend on the processing

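The 12 genes above 0 and 12 below 0 all kept their direction in each of the 576 values from 24 other settings. These genes were picked for a small p in this contrast and the settings share most libraries. A kept direction was therefore favoured in advance, and nothing is read from it. Of these values 70 passed the adjusted threshold, of which 48 come from the 2 settings added after the data were seen and 22 from the others. Over the 115 named genes with more than 3 counts in every group, 36 of 2756 values changed direction. The cause was not tested. The interaction count of 0 moved to 12 with DESeq2 (10 above 0, 2 below), 8 with no filter on low counts (5 and 3), 8 without control untreated 2 and control ATRA 2 together (1 and 7), and, in settings added after the data were seen, 3510 without control untreated 1 and control ATRA 2 (2121 and 1389) and 4484 with limma-voom sample weights (2807 and 1677), which gave the near-identical knockout ATRA 1 and 3 weights of 7.19 and 6.95. Leaving out 1 library gave 0 to 135 calls (0 to 91 above 0 and 0 to 44 below): 135 without control untreated 1 and 2 without control ATRA 2. With the near-identical knockout libraries summed, 0 were called and 757 (3.83% of the 19777 tested then) were at an unadjusted p under 0.05.

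The 22 ATRA calls in control became 1621 with DESeq2, 1407 with no filter, 4 with the replicate block, 0 with knockout libraries summed, 3 without knockout untreated 3 and knockout ATRA 2, 1903 without control untreated 2 and control ATRA 2, 7 with GC trends removed, 6568 without control untreated 1 and control ATRA 2, 5011 with sample weights, and 0 to 2457 without 1 library. The 6 calls in the knockout became 561, 272, 0, 0, 0, 571, 10, 603 and 6423 in the same settings, 0 with limma-voom, and 0 to 181 without 1 library. The replicate numbers did not pair the samples: correlations of same-numbered deviations ran from -0.661 to 0.612, with 4 of 18 above 0.1, and the block left the interaction at 0 calls with 1615 genes at an unadjusted p under 0.05. Libraries with unlike numbers were correlated across groups in part, from -0.661 to 0.686, with 16 of 36 above 0.1. The highest was knockout untreated 3 with knockout ATRA 2, and control untreated 1 with control ATRA 3 was at 0.604.

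Direction changed for 8 genes. HOXA6 was at -0.19 with the replicate block, -0.67 without knockout untreated 3 and knockout ATRA 2, -1.68 without control untreated 2 and control ATRA 2, -0.071 without control untreated 1 and control ATRA 2, -1.64 with sample weights and -1.19 to 0.81 without 1 library. HOXA13 was at 0.37 with limma-voom, 0.32 without control untreated 2 and control ATRA 2, 0.040 with sample weights and -0.80 to 0.78 without 1 library, and HOXA11 at -1.71 to 0.62 without 1 library. POU5F1 was at 0.043 with limma-voom, 0.42 and 1.27 without each pair of control libraries, 0.38 with sample weights and -1.01 to 1.06 without 1 library. CYP26A1 was at -0.079 with limma-voom, -4.43 with the replicate block, -3.17 without the knockout pair, -4.45 without control untreated 2 and control ATRA 2, -5.97 with sample weights and -4.00 to 4.72 without 1 library. DHRS3 was at -0.048 without control untreated 2 and control ATRA 2, -0.085 with sample weights and -0.014 to 1.29 without 1 library. TAX1BP3 was at 0.16 with GC trends removed and -0.28 to 0.0052 without 1 library. CTSK was at -0.12 with GC trends removed, -0.090 without control untreated 2 and control ATRA 2 and -0.085 to 0.34 without 1 library.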

Other observations

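A group of genes, singled out after their values were seen, was set apart by control untreated 1. KLF2, a Kruppel-like factor, was at 92.96, 1.303 and 4.53 CPM untreated and 101, 136 and 220.5 with ATRA in control, and at 5.904, 5.76 and 1.16 untreated and 6.06, 3.55 and 7.796 with ATRA in the knockout. LGALS1, galectin 1, was at 168, 26.9 and 35.7 CPM untreated and 189, 376 and 228 with ATRA in control, and at 35.6, 35.5 and 17.6 untreated and 19.4, 5.49 and 19.2 with ATRA in the knockout. CRIP1, a LIM domain protein, was at 51.2, 7.03 and 6.86 CPM untreated and 60.3, 90.7 and 106 with ATRA in control, and at 8.01, 9.59 and 17.7 untreated and 3.83, 7.07 and 4.35 with ATRA in the knockout. In all 3 genes control untreated 1 lay apart from control untreated 2 and 3 and near the ATRA libraries. The calcium-binding S100 genes lay likewise in control. S100A10 was at 312, 86.4 and 75.97 CPM untreated and 347, 458 and 483 with ATRA in control, and at 374, 322 and 401 untreated and 327, 163 and 325 with ATRA in the knockout. S100A16 was at 108, 20.4 and 22.1 CPM untreated and 116, 142 and 172 with ATRA in control, and at 25.8, 26.4 and 17.8 untreated and 25.4, 23.4 and 27.4 with ATRA in the knockout. For KLF2, LGALS1, CRIP1, S100A10 and S100A16, in that order, the interactions with all libraries were -1.78 ± 1.54, -2.79 ± 0.92, -3.19 ± 0.95, -1.87 ± 0.65 and -1.40 ± 0.72. Without control untreated 1 they were -5.27, -4.09, -4.84, -2.84 and -2.64. The genes were singled out for the position of that library, so larger values without it were favoured in advance. Nothing is read from them. In control untreated 1, 2 and 3, in that order, HOXA3 was at 0.614, 0.0352 and 0.115 CPM and HOXA5 at 0.0801, 0.704 and 0.101 CPM. Without control untreated 1, 135 of the 19748 genes tested then were called. Of the 135, 11 were among the 12 above and 12 below 0 (CLDN12, INPP5D, EMC10, RNF139, BTF3L4, UBE2QL1, CEPT1, SESN1, TMED7, PRRX2 and CXCL14), and 7 were list members (SESN1, CBX7, DDIT3, ASNS, MSMO1, SC5D and KLF2). The 12 and 12 were picked by the same contrast on mostly the same libraries, so their overlap was favoured in advance. Nothing is read from it.

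Other genes had small p-values at levels under the minimum of 5 CPM or outside the rule. PTGER2, a prostaglandin E receptor, was at 0.0801, 0.528 and 0.288 CPM untreated and 0.0615, 0.07797 and 0.0259 with ATRA in control, and at 0.457, 0.3599 and 0.385 untreated and 1.74, 2.99 and 2.26 with ATRA in the knockout, with an interaction of 4.94 ± 0.86 (SE, unadjusted p = 7.59e-05). S100A5 was at 0.3203, 0.0881 and 0.115 CPM untreated and 0.461, 0.468 and 0.544 with ATRA in control, and at 1.37, 1.05 and 1.33 untreated and 0.261, 0.264 and 0.276 with ATRA in the knockout, with an interaction of -3.75 ± 0.66 (SE, unadjusted p = 8.56e-05). Both had no overlap between treatments in the knockout, in opposite directions. FAM71E1 was at 0, 1.44 and 1.14 CPM untreated and 0, 0 and 0 with ATRA in control, and at 1.26, 0.785 and 2.397 untreated and 1.94, 1.97 and 1.93 with ATRA in the knockout, with 0 counts in every control library except untreated 2 and 3. RMST, a long non-coding RNA of neural cells, was at 4.43, 71.2 and 9.86 CPM untreated and 0.738, 1.300 and 0.596 with ATRA in control, and at 6.29, 5.86 and 5.09 untreated and 2.41, 5.28 and 2.34 with ATRA in the knockout, and its interaction of 4.23 ± 1.14 (SE, unadjusted p = 0.00274) was 2.24 without control untreated 2.

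The 12 genes that DESeq2 called were PRRX2 and HOXD-AS2 below 0 and CLDN12, INPP5D, EMC10, RNF139, UBE2QL1, HMGN1P38, PTGER2, FAM71E1, MGARP and BNIP3P1 above 0. HOXD-AS2 is an antisense transcript and BNIP3P1 a pseudogene, and their counts are uncertain. HOXD10, a posterior HOX gene, was at 16.9, 10.4 and 8.65 CPM untreated and 0.984, 8.79 and 1.22 with ATRA in control, and at 65.6, 61.5 and 68.9 untreated and 57.9, 74.9 and 58.1 with ATRA in the knockout. Its interaction was 1.67 ± 0.87 (SE, unadjusted p = 0.0795) with all libraries and 3.39 (adjusted p = 0.0263 in edgeR) without the library labelled control ATRA 2, and its adjusted p ran from 0.00235 to 0.917 over all settings other than the reported one.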
